A study of Mus musculus with 19 samples.

Results

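The 10 genes described here sense or transmit the unfolded protein response, the programme by which a cell answers misfolded protein in the endoplasmic reticulum (ER). They were followed through RNA sequencing of mouse dorsal hippocampus. They are the rows of the count table whose Ensembl identifier, with the version dropped, belongs to Ern1, Xbp1, Atf6, Atf6b, Mbtps1, Mbtps2, Creb3l2, Eif2ak3, Atf4 or Ddit3. All 10 were found among 51789 genes. The 19 libraries were ribosomal-RNA-depleted total RNA of male C57BL/6J mice aged 2 to 4 months. Mice of experiment 1 were all positive for the transactivator tTA, and their exposure is labelled SOR, an abbreviation that is not spelled out there. Of these mice, 5 carried DN as well (tTA+/DN+) and 6 did not (tTA+/DN-). DN is the dominant-negative Nr4A transgene of the series' Nr4ADN mice. In experiment 2 no mouse carried DN: 4 controls were exposed to SOR and 4 stayed in the homecage. Replicate 1 of the SOR group and replicates 1 and 2 of the homecage group were tTA-, and the other 5 mice were tTA+. The labels name no promoter for tTA; in the published Nr4ADN line it is that of Camk2a, which is active in excitatory neurons of the forebrain. They do not say whether litters or dissection days were shared, so p-values measure the spread between these libraries.

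The response has 3 arms, each begun by a sensor in the ER membrane. IRE1, the product of Ern1, cuts a short intron out of Xbp1 mRNA in the cytoplasm, and the joined mRNA encodes an active transcription factor. ATF6 and its relative ATF6B travel to the Golgi, where the site-1 and site-2 proteases (Mbtps1, Mbtps2) release their transcription factor domains; CREB3L2 is an ER-bound factor of a similar build that is cut by the same proteases. PERK, the product of Eif2ak3, phosphorylates the initiation factor eIF2alpha, which lowers overall translation and favours translation of Atf4 mRNA; Ddit3 encodes CHOP, a factor downstream of ATF4. In neurons these arms have been studied in protein homeostasis and in memory. Since splicing, proteolysis, phosphorylation and translation carry most of the signal, a count of RNA per gene measures the abundance of each transcript and not the activity of its arm.

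The piece of Xbp1 that IRE1 removes is shown because gene counts add up its spliced and unspliced forms. Xbp1 lies at chr11:5520659-5525893 on the plus strand of GRCm38, and the site is in coding exon 4 of transcript Xbp1-201, at chr11:5524279-5524304. It lies between a pair of CNGCNG motifs, the letters that IRE1 recognises at its cuts, 26 bases apart. Of 18 such pairs in the coding sequence with 10 to 40 bases between them, this one gave the longest reading frame once the bases between were removed. The 26 bases are in capitals, with 24 bases of exon on each side.
Xbp1 IRE1 site: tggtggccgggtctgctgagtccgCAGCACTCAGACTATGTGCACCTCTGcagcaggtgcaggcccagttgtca
With these bases present the reading frame runs for 267 codons, and without them for 371. Of the 4 annotated Xbp1 transcripts 3 hold the site and 0 lack only these bases, so the 2 forms cannot be told apart in a count per gene.

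Promoter windows of the sensors and of the genes downstream of them were searched for the binding elements of the response. RefSeq windows of 250 bases before to 50 after the gene start, on GRCm38.p6, held 9 of the 10 sensor and factor genes (all but Atf6). The ER stress response element was searched as CCAAT, 9 bases of any kind and CCACG, on either strand, the joint site of NF-Y and ATF6 or XBP1. It was found in 0 of the 9 windows, in 4 of the 8 windows available for 10 textbook ATF6 targets (Hspa5, Hsp90b1, Calr and Creld2), in 2 of 9 for XBP1 targets (Dnajc3 and Pdia6) and in 0.119% of 32851 windows of all genes. The 250 bases before the start are given for Xbp1, the factor whose RNA changed most, and for 2 chaperone genes that changed with it. Capitals mark the fixed letters of the element, and Xbp1 has none to mark.
Xbp1, chr11:5520391-5520640, plus strand: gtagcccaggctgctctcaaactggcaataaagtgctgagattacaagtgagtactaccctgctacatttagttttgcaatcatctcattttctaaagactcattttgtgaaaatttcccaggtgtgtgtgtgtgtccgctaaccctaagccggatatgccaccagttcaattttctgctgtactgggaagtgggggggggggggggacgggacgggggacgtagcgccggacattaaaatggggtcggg
Hspa5, chr2:34771840-34772089, plus strand: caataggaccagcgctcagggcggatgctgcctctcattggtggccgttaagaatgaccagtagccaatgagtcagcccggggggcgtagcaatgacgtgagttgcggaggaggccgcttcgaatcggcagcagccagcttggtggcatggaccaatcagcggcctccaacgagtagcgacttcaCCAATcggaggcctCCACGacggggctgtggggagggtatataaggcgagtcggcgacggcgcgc
Dnajc3, chr14:118937682-118937931, plus strand: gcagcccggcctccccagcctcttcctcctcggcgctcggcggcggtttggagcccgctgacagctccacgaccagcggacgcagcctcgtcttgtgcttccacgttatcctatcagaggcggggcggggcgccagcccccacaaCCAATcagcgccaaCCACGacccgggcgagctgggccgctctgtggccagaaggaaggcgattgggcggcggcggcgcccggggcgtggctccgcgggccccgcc
The element's CCACG end alone was present in 3 of the 9 windows (Ern1, Mbtps1 and Atf4), beside 32.8% of all windows. The UPR element core TGACGTGG, the cAMP response element TGACGTCA, the ATF4 site TTGCATCA and the Nr4A binding element AAAGGTCA were in 0 of the 9, beside 0.676%, 1.79%, 0.895% and 1.51% of all windows. The search covers these letters in these windows only.

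All 10 genes were counted in every library, with 211 to 9116 counts per gene and library. Libraries held 22258159 to 66991576 counts, and replicate 3 of the experiment 2 SOR group stood apart, with the fewest counts and 27815 detected genes where the others had 30165 to 32495. Neuron markers (Rbfox3, Snap25, Syt1, Slc17a7, Camk2a) summed to 4390 to 5910 CPM in each library (CPM: counts relative to the library total, scaled by TMM), and the hippocampal markers were present throughout. Markers of the choroid plexus, a tissue next to the dorsal hippocampus, varied widely: 8 of them summed to 992 to 4120 CPM in 5 libraries (experiment 1 control replicates 1 and 2, DN replicate 2, experiment 2 SOR replicates 1 and 2) and to 19.8 to 172 CPM in the others. Nr4a1 ran from 28.4 to 39.2 CPM in DN mice and from 20.2 to 52.5 CPM in their controls, which does not check the DN label, since reads of the transgene and of the Nr4a genes cannot be told apart in a count per gene. In bulk tissue, fewer cells of a type and less RNA per cell cannot be told apart.

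Per kilobase of exon, the order of the levels was nearly the same in all groups. Length here is that of all annotated exons of a gene joined, 10539 bases for Mbtps1 and 2757 for Atf6b. The order depends on it: before division by length, Mbtps1 stood at 103 CPM and Atf6b at 35.5 CPM in the homecage. In the homecage Atf4 was highest, at 45.7 ± 3.48 CPM per kb (SD, n = 4), followed by Xbp1 at 25.1 ± 1.36. Atf6 stood at 16.8 ± 2.50, Atf6b at 12.9 ± 1.30 and Ddit3 at 11.5 ± 1.13. The ranges of Atf6b and Ddit3 overlapped there, and those of Atf6 and Atf6b in the other 3 groups. Mbtps1 (9.78 ± 0.452), Eif2ak3 (5.13 ± 0.137) and Mbtps2 (2.73 ± 0.0978) followed without overlap. The 2 lowest, Ern1 at 1.55 ± 0.166 and Creb3l2 at 1.27 ± 0.135 CPM per kb, overlapped in every group and changed places in the experiment 1 controls. Among the sensors, Ern1 was lowest and Atf6 highest per length, while Xbp1 and Atf4, the factors made downstream of Ern1 and Eif2ak3, were the most abundant per length.

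**Figure D1:**
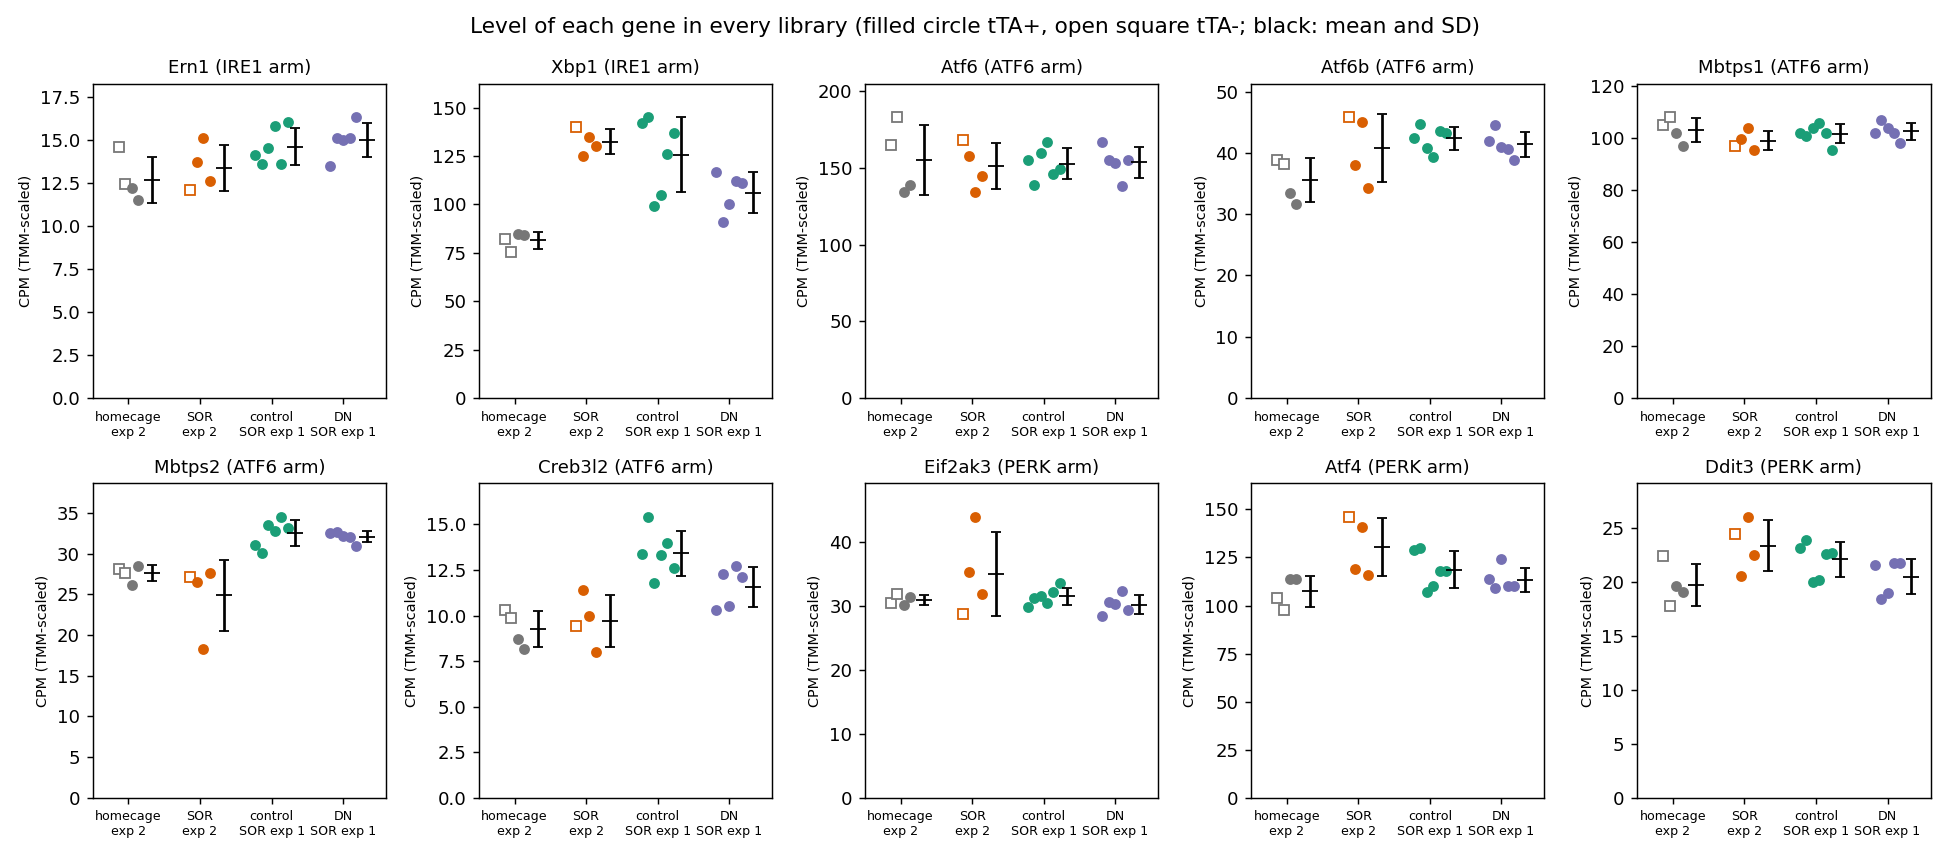
Level of each of the 10 genes in every library, as TMM-scaled CPM on a linear axis from 0, by group; filled circles are tTA+ and open squares tTA- mice, and black marks give mean and SD. Xbp1 in the 4 SOR libraries of experiment 2 lies between 125 and 140 CPM, all above the 4 homecage libraries at 75.2 to 84.7, while the sensors Ern1, Atf6 and Eif2ak3 overlap between those groups.

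Exposure to SOR was compared with the homecage in the 8 mice without DN. Xbp1 rose 1.62-fold and was the 1 gene of the 10 that passed the test. The 3 sensor genes did not pass it, nor did the ATF6-processing proteases. Atf4 and Ddit3, the factors of the PERK arm, stood higher by smaller amounts that passed without adjustment only. The call rate over all genes was low: 20 of 22305 genes, or 0.0897%, had an adjusted p under 0.05 by edgeR's quasi-likelihood test with Benjamini-Hochberg adjustment, and all 20 were higher after SOR.

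In the IRE1 arm, Xbp1 in the homecage measured 82.2, 75.2, 84.7 and 84.3 CPM in replicates 1 to 4. After SOR it measured 140, 125, 135 and 130 CPM. Every SOR library was above every homecage library, tTA- and tTA+ mice alike, and the spread within groups was small. The log2 difference was 0.70 (SE 0.0770, 95% interval 0.53 to 0.87, adjusted p = 0.00879 by edgeR), the third smallest p of all genes tested. Ern1 (chr11:106394650-106487852, minus strand), the gene of the enzyme that splices it, measured 14.6, 12.4, 12.2 and 11.5 CPM in the homecage and 12.1, 13.7, 15.1 and 12.6 CPM after SOR. These groups overlapped and crossed. The log2 difference of Ern1 was 0.08, with a 95% interval of -0.17 to 0.33 and an adjusted p of 0.840 by edgeR.

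The call for Xbp1 was lost when some libraries were left out, while the size of its difference was kept. Across 21 alternative analyses its log2 difference stayed between 0.62 and 0.73. The adjusted p by edgeR rose past 0.05 when homecage replicate 1 (0.0817), 2 (0.0569) or 3 (0.0604) or SOR replicate 1 (0.0636) was left out, and in the 5 tTA+ mice alone the log2 difference was 0.62 (adjusted p = 0.998 by edgeR). Choroid plexus markers were high in SOR replicates 1 and 2, at 992 and 2190 CPM in sum, while replicates 3 and 4, at 23.3 and 56.6, lay below or within the homecage range of 44.3 to 172. Over the groups all 8 stood higher after SOR, beside 51.5% of all genes, with a median log2 difference of 2.16 and 0 called by edgeR, 4 of them at an unadjusted p under 0.05, beside 3.67% of all genes in that direction. Xbp1 measured 135 and 130 CPM in SOR replicates 3 and 4, and 140 and 125 CPM in replicates 1 and 2. Without replicates 1 and 2 of the SOR group its log2 difference was again 0.70, at an adjusted p of 0.164 by edgeR with 2 SOR libraries left.

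In the ATF6 arm no gene passed the test after SOR. Atf6 (chr1:170704674-170867771, minus strand) measured 165, 183, 134 and 139 CPM in the homecage and 168, 158, 134 and 145 CPM after SOR. In both groups the tTA- mice were the high ones. The log2 difference was -0.04 (95% interval -0.29 to 0.22, adjusted p = 0.940 by edgeR). Atf6b (chr17:34647146-34655074, plus strand) measured 38.9, 38.2, 33.5 and 31.6 CPM in the homecage against 45.8, 38.1, 45.1 and 34.2 CPM after SOR, which overlapped, with a log2 difference of 0.20 and an interval of -0.05 to 0.45. The site-1 protease gene Mbtps1 (chr8:119508156-119558735, minus strand) varied little, from 97.1 to 108 CPM in the homecage and from 95.6 to 104 CPM after SOR. Mbtps2 (chrX:157535371-157598715, minus strand), for the site-2 protease, ran from 26.2 to 28.5 CPM in the homecage and measured 27.1, 26.5, 18.3 and 27.6 CPM after SOR. The low value is that of the library that stood apart, and 28.4% of the exon length of Mbtps2 is shared with Yy2 on the same strand, so its counts are uncertain. Creb3l2 (chr6:37327255-37442146, minus strand) ran from 8.14 to 10.3 CPM in the homecage and from 7.99 to 11.4 CPM after SOR, a log2 difference of 0.07 (interval -0.22 to 0.37).

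In the PERK arm, Atf4 (chr15:80255184-80257541, plus strand) measured 104, 97.7, 114 and 114 CPM in the homecage and 146, 119, 141 and 116 CPM after SOR. The groups did not overlap, though the highest homecage and the lowest SOR libraries lay close together. The log2 difference was 0.28 (SE 0.0990, interval 0.06 to 0.50, adjusted p = 0.621 by edgeR), and it was 0.13 in the tTA+ mice alone. Non-overlap upward, seen in 2 of the 10 genes (Xbp1 and Atf4), occurred in 3.06% of all genes tested. Ddit3 (chr10:127290774-127296288, plus strand) measured 22.4, 17.8, 19.6 and 19.1 CPM in the homecage and 24.4, 20.5, 26.0 and 22.5 CPM after SOR, where replicate 2 of the SOR group and replicate 1 of the homecage group crossed. Its log2 difference was 0.24 (SE 0.107, adjusted p = 0.650 by edgeR). An unadjusted p under 0.05 in the upward direction was reached by 3 of the 10 genes and by 3.67% of all genes; without the SOR replicates rich in choroid plexus markers it was reached by 1 of the 10, Xbp1, and by 7.54% of all genes. Eif2ak3 (chr6:70844515-70905245, plus strand), the PERK gene itself, ran from 30.1 to 31.8 CPM in the homecage and measured 28.7, 35.3, 43.9 and 31.8 CPM after SOR. The highest value again came from the library that stood apart, and the log2 difference was 0.17 (interval -0.09 to 0.44).

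**Figure D2:**
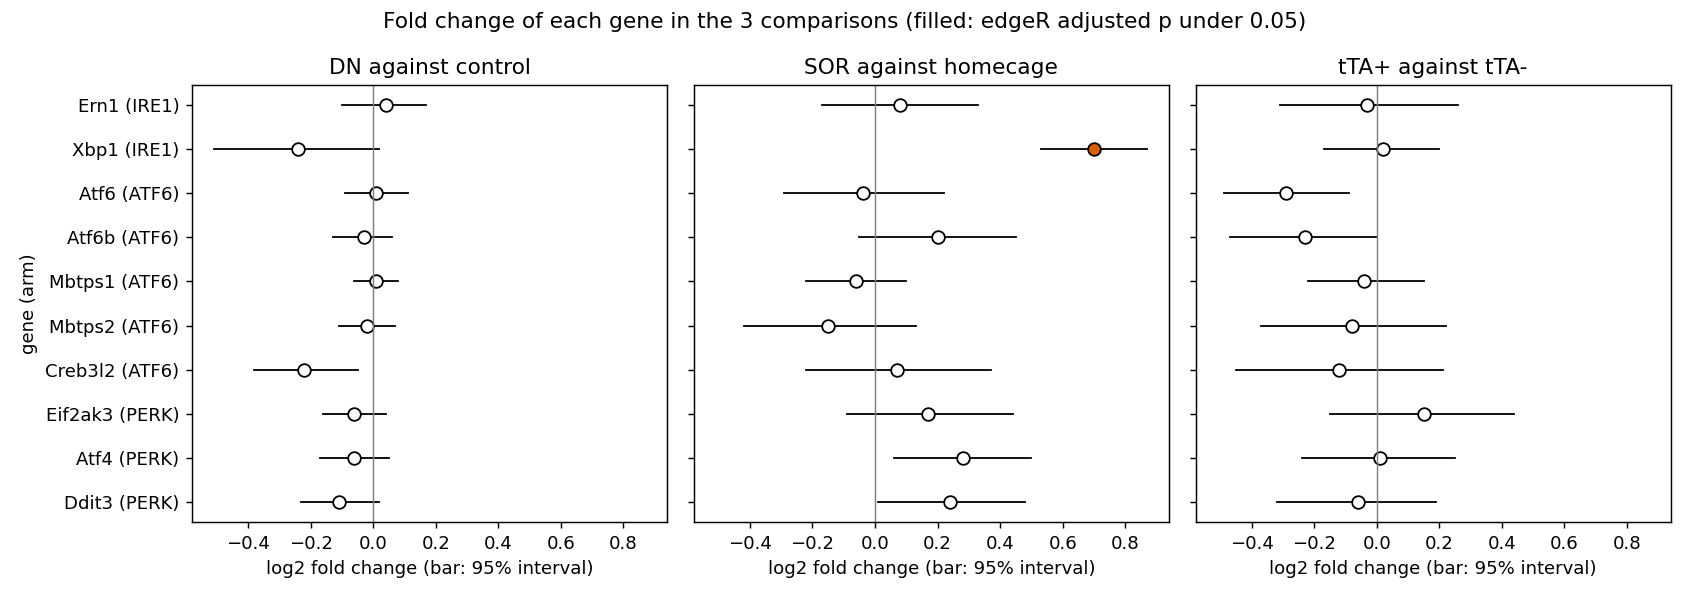
Log2 fold change of each of the 10 genes, with its 95% interval, in the 3 comparisons, by arm; filled points have an edgeR adjusted p under 0.05. Xbp1 after SOR, at 0.70 with an interval of 0.53 to 0.87, is the filled point, and its interval does not reach that of any other gene in the panel.

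Xbp1 was also set against each of the other 9 genes within each library, a comparison chosen after its values were seen. The log2 ratio of Xbp1 to Ern1 averaged 2.69 ± 0.177 in the homecage and 3.31 ± 0.174 after SOR (SD, n = 4 each). Against Atf4 it went from -0.40 ± 0.0457 to 0.03 ± 0.114. All 9 ratios were higher in every SOR library than in every homecage library, by 0.43 (Atf4) to 0.87 (Mbtps2). No test is given for these ratios, since Xbp1 itself was already separated between the groups and all 9 share its values. In DN against control, within experiment 1, the same ratios overlapped for all 9 genes, with differences of -0.27 (Ern1) to -0.02 (Creb3l2) and p-values of 0.222 to 0.892 by exact two-sided permutation tests, adjusted over the 9.

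Genes downstream of the arms were read from lists of textbook targets. After SOR, ATF6 targets had the largest median change of the 5 lists. All 10 were higher, beside 51.5% of all genes, with a median log2 difference of 0.58 beside 0.01 for all genes tested, 8 of 10 did not overlap between groups, beside 3.06% of all genes, and 3 were called by edgeR, beside 0.0897%. Hspa5, the ER chaperone BiP, measured 400, 318, 387 and 349 CPM in the homecage and 664, 605, 810 and 573 CPM after SOR. Its log2 difference was 0.87 (SE 0.119, adjusted p = 0.0228 by edgeR). Manf, a secreted factor released under ER stress, rose by 0.65 (SE 0.0822, adjusted p = 0.0133), and Sdf2l1, a cochaperone of BiP, rose by 1.05 (SE 0.141, adjusted p = 0.0200), both log2 by edgeR. The exception in size was Sel1l, of the ER-associated degradation complex, at 0.01. Several of these genes are targets of XBP1 as well as of ATF6, so a list does not belong to 1 arm alone. Without SOR replicates 1 and 2, the libraries rich in choroid plexus markers, 9 of the 10 were higher, beside 48.2% of all genes, with a median of 0.52 and 0 called by edgeR. In that smaller fit 9 had an unadjusted p under 0.05 in the upward direction, which 7.54% of all genes reached. In the full comparison 6 of 7 oligodendrocyte, 3 of 5 microglia and 3 of 5 astrocyte markers were higher, beside 51.5% of all genes. At an unadjusted p under 0.05 upward these held 2, 2 and 1, beside 3.67% of all genes. Endothelium markers had 1 higher and 1 lower at that p, and neuron markers 0. All 5 hippocampal field markers were lower, with a median of -0.22. None was called by edgeR, and their part in the target lists was not tested.

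Of 10 XBP1 targets 7 were higher after SOR, beside 51.5% of all genes, with a median log2 difference of 0.16, and 3 had an unadjusted p under 0.05 in that direction, beside 3.67%. Dnajc3, the ER cochaperone P58IPK, was the 1 called, beside 0.0897% of all genes: it measured 116, 111, 118 and 113 CPM in the homecage and 155, 164, 153 and 157 CPM after SOR, a log2 difference of 0.46 (SE 0.0700, adjusted p = 0.0432 by edgeR). Without SOR replicates 1 and 2, 6 of the 10 were higher, beside 48.2% of all genes, with a median of 0.13. None was then called by edgeR, and 3 had an unadjusted p under 0.05 in the upward direction, beside 7.54%. The disulfide isomerase Pdia6 and the cochaperone Dnajb11 did not overlap between groups either, at 0.64 (adjusted p = 0.147) and 0.48 (adjusted p = 0.177) by edgeR. Edem1 and Dnajb9, used widely as reporters of spliced XBP1, stood at -0.01 and -0.07, with adjusted p of 0.973 and 0.913 by edgeR. Their 95% intervals were wide, at -0.25 to 0.22 and -0.46 to 0.31. After SOR Edem1 ran from 27.2 to 39.0 CPM and Dnajb9 from 15.1 to 30.3 CPM. Of 12 targets of the PERK-ATF4-CHOP branch 11 were higher, with a median of 0.22, and 0 were called by edgeR, 2 having an unadjusted p under 0.05 in opposite directions, beside 7.60% of all genes in either; without SOR replicates 1 and 2 the median was 0.14. Ddit4, an inhibitor of mTORC1 signalling, was at 0.35 and the cystine transporter gene Slc7a11 at -0.33, with adjusted p of 0.608 and 0.621 by edgeR.

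RNAs that IRE1 can degrade showed no call after SOR, beside 0.0897% of all genes: 4 of 6 were higher, beside 51.5%, and the median was 0.09. The lowest was Pdgfrb, a pericyte receptor, at -0.37 (adjusted p = 0.615 by edgeR), the 1 of the 6 with an unadjusted p under 0.05, beside 7.60% of all genes in either direction. Of 15 further regulators, among them the other eIF2alpha kinases and the other CREB3 factors, 14 were tested. Ern2, the gut paralog of Ern1, was left out with 0 to 7 counts per library. Of the 14, 12 were higher, with a median of 0.17 and 0 called by edgeR, and 1 had an unadjusted p under 0.05 in that direction, beside 3.67% of all genes. Without SOR replicates 1 and 2, 10 of the 14 were higher, beside 48.2% of all genes. The smallest p was that of Nfe2l2, the antioxidant factor NRF2 and a substrate of PERK, at 0.41 (adjusted p = 0.604 by edgeR). Traf2, an adaptor that binds IRE1, followed at 0.21 (adjusted p = 0.662 by edgeR).

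**Figure D3:**
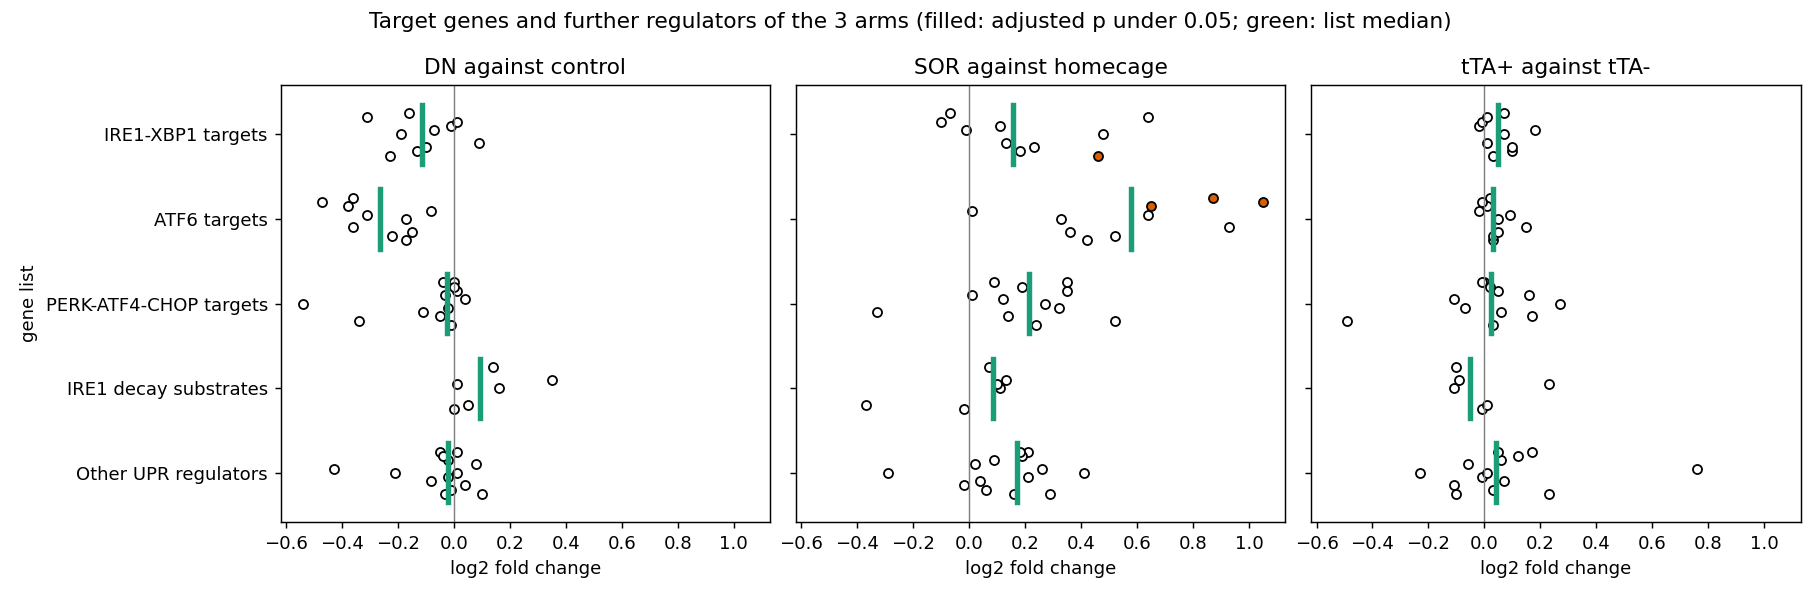
Log2 fold change of each tested gene of 5 pathway lists in the 3 comparisons; filled points have an edgeR adjusted p under 0.05 and green bars are list medians. After SOR the ATF6 targets lie between 0.01 and 1.05 with a median of 0.58, in DN against control the same list lies between -0.47 and -0.08, and in tTA+ against tTA- all 5 medians lie near 0.

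The DN transgene was compared with control in mice that had all been exposed to SOR. None of the 10 genes passed the test, beside 2 of 22391 genes called, or 0.00893%, by edgeR. DESeq2 and limma-voom also called 0 of the 10. Of the 10 genes 7 were lower in DN mice, beside 50.0% of all genes, with a median log2 difference of -0.05 beside 0.00. By edgeR Creb3l2 was the 1 gene with an unadjusted p under 0.05, which 3.83% of all genes reached; by DESeq2, by limma-voom and with all 19 libraries in 1 edgeR fit Xbp1 had one as well. Without the 3 libraries rich in choroid plexus markers 9 of the 10 were lower, with a median of -0.03. The differences of the 3 sensors were near 0: Ern1 at 0.04 (interval -0.10 to 0.17), Atf6 at 0.01 (-0.09 to 0.11) and Eif2ak3 at -0.06 (-0.16 to 0.04).

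Xbp1 measured 117, 90.7, 100, 112 and 111 CPM in the 5 DN mice. In the 6 controls it ran from 99.4 to 145 CPM with a median of 131. Of the DN values 4 lay within the control range and the other, 90.7 CPM in replicate 2, below it. The lowest 2 controls, replicates 3 and 4, lay among the DN values. The log2 difference was -0.24 (SE 0.118, interval -0.51 to 0.02, adjusted p = 0.999 by edgeR). Control replicates 1 and 2, with 142 and 145 CPM of Xbp1, were also the controls with 4120 and 1350 CPM of choroid plexus markers, and DN replicate 2, with 1650, had the lowest Xbp1 of experiment 1. Without these 3 libraries the log2 difference of Xbp1 was -0.08. With the marker level as a covariate it was -0.23. All 8 choroid plexus markers were lower in DN, with a median of -0.88 and 0 called by edgeR, 0 of them at an unadjusted p under 0.05.

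Creb3l2 measured 10.3, 12.3, 10.5, 12.7 and 12.1 CPM in the DN mice, and 11.8 to 15.4 CPM with a median of 13.4 in the controls. The groups overlapped through control replicates 3 and 6. The log2 difference was -0.22 (SE 0.0775, interval -0.38 to -0.05, adjusted p = 0.999 by edgeR), and it was -0.18 without the 3 libraries rich in choroid plexus markers. Atf4 ran from 109 to 124 CPM in DN mice and from 107 to 130 CPM in controls, a log2 difference of -0.06 (interval -0.17 to 0.05). Ddit3 ran from 18.4 to 21.7 CPM against 20.0 to 23.9 CPM, a log2 difference of -0.11 (interval -0.23 to 0.02), which was -0.02 without those 3 libraries. Mbtps1, Mbtps2 and Atf6b differed by 0.01, -0.02 and -0.03, each with an interval inside -0.13 to 0.08.

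**Figure D4:**
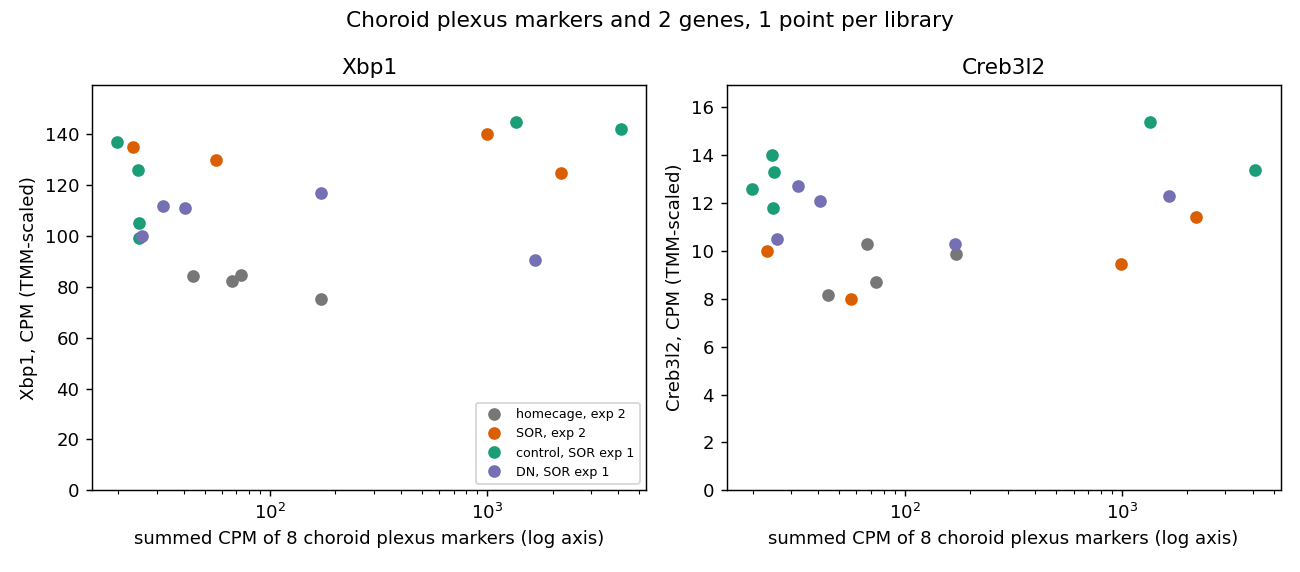
Level of Xbp1 and Creb3l2 (TMM-scaled CPM) against the summed CPM of 8 choroid plexus markers on a log axis, 1 point per library, coloured by group. The SOR libraries of experiment 2 hold 125 to 140 CPM of Xbp1 whether the markers sum to 23.3 or to 2190, and the 2 controls of experiment 1 with the most marker RNA, at 1350 and 4120, have its highest values, 145 and 142. DN replicate 2, with 1650 CPM of the markers, has the lowest Xbp1 of experiment 1, 90.7 CPM.

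Target lists in the DN comparison held 0 called genes by edgeR. All 10 ATF6 targets were lower in DN mice, with a median log2 difference of -0.26, and 9 of the 10 had an unadjusted p under 0.05 in that direction, beside 1.81% of all genes. Without the 3 libraries rich in choroid plexus markers all 10 were again lower, with a median of -0.12, and 0 had an unadjusted p under 0.05, beside 1.57% of all genes lower at that p. Of the marker lists of other cells, oligodendrocyte markers had 6 of 7 below 0 in DN mice, 2 of them (Mbp and Cldn11) at an unadjusted p under 0.05, and astrocyte markers 3 of 5, 2 of them (Aqp4 and Gja1) at that p, with 0 called by edgeR. Oligodendrocyte markers summed to 6090 to 6720 CPM in DN mice and 6420 to 7550 in controls, and astrocyte markers to 1510 to 1690 and 1570 to 1690, with no marker at 0. Their part in the target lists was not tested. Herpud1, of the ER degradation complex, was at -0.22 and the chaperone Hyou1 at -0.15, both with an adjusted p of 0.999 by edgeR. XBP1 targets had 8 of 10 lower and a median of -0.11, 4 of them at an unadjusted p under 0.05 in that direction. Without the same 3 libraries 7 of 10 were lower, with a median of -0.06, and 0 of the lower ones had an unadjusted p under 0.05. In the full comparison Dnajb9 was at -0.16 and Serp1, which stabilises membrane proteins during stress, at -0.13, again at an adjusted p of 0.999 by edgeR. PERK-ATF4-CHOP targets had a median of -0.02, with 0 at an unadjusted p under 0.05. The smallest p there were those of Trib3, a pseudokinase gene, at -0.54, and of the factor gene Atf3, at -0.34, both with intervals that include 0. The RNAs that IRE1 can degrade were all 6 above 0, beside 50.0% of all genes, with a median of 0.09, and 2 had an unadjusted p under 0.05, beside 2.02% of all genes in that direction. Without the same 3 libraries 5 of 6 were above 0, again with a median of 0.09. In that fit 1 had an unadjusted p under 0.05 upward, beside 436 of 22438 genes. Scara3, a scavenger receptor gene, was at 0.16 and Col6a1, a collagen gene, at 0.35, both at an adjusted p of 0.999 by edgeR. The further regulators had a median of -0.02 and 0 at an unadjusted p under 0.05; Ppp1r15b, a phosphatase subunit that reverses PERK action, was at -0.08 and Creb3l4 at -0.43.

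Homecage Xbp1 in experiment 2, at 81.6 ± 4.41 CPM (SD, n = 4), was the lowest group mean. It was followed by DN after SOR in experiment 1, at 106 ± 10.6 (n = 5), controls after SOR in experiment 1, at 126 ± 19.5 (n = 6), and controls after SOR in experiment 2, at 133 ± 6.24 (n = 4). Neighbouring groups overlapped, except that every homecage library was below every other library. The tTA+/DN- condition after SOR is present in both experiments, as the 6 controls of experiment 1 and SOR replicates 2 to 4 of experiment 2. Experiment 1 has no homecage mice, and DN against homecage was not tested. CPM were scaled within each experiment, so the order of these means also carries any difference between the experiments. In controls after SOR, Creb3l2 ran from 11.8 to 15.4 CPM in experiment 1 and from 7.99 to 11.4 in experiment 2. Mbtps2 ran from 30.1 to 34.5 and from 18.3 to 27.6 CPM.

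tTA+ and tTA- mice of experiment 2 were compared with exposure in the model, using the same 8 libraries as the SOR comparison. None of the 10 genes passed the test, beside 82 of 22904 genes called, or 0.358%, by edgeR; DESeq2 and limma-voom also called 0. Atf6 came nearest to a call: it measured 165, 183 and 168 CPM in the 3 tTA- mice and 158, 134, 145, 134 and 139 CPM in the 5 tTA+ mice. All tTA+ mice were below all tTA- mice, in the homecage and after SOR alike. The mice of experiment 1, all tTA+, ran from 138 to 167 CPM. The log2 difference was -0.29 (SE 0.0915, interval -0.49 to -0.09, adjusted p = 0.503 by edgeR). Such downward non-overlap was seen in 1 of the 10 genes and in 3.40% of all genes. With all 19 libraries in 1 fit the adjusted p of Atf6 was 0.0380 by edgeR, at the same log2 difference. Experiment 1 has no tTA- mice, so its libraries entered only the estimate of spread. The comparison there was still of the 5 tTA+ and 3 tTA- mice of experiment 2.

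Atf6b was lower too, at 36.5 ± 5.37 CPM in tTA+ mice (SD, n = 5) against 41.0 ± 4.21 in tTA- mice (n = 3), with overlap, a log2 difference of -0.23 and an adjusted p of 0.885 by edgeR. For the factors that stood higher after SOR the tTA differences were near 0: Xbp1 differed by 0.02 (interval -0.17 to 0.20), Atf4 by 0.01 (-0.24 to 0.25) and Ddit3 by -0.06 (-0.32 to 0.19). None of the 5 lists had a called gene by edgeR, and their medians ran from -0.05 to 0.05, or from -0.12 to 0.09 without SOR replicates 1 and 2. An unadjusted p under 0.05, which 5.71% of all genes reached, was that of 1 gene of these lists, Sparc, an extracellular matrix gene, at 0.23 (adjusted p = 0.668 by edgeR). Atf3, at -0.49, and Creb3l4, at 0.76, had wide intervals at low counts, and Edem1 stood at 0.18 and Psat1, of serine synthesis, at 0.17. Markers of hippocampal fields are given beside Atf6: 4 of 5 were below 0 in tTA+ mice, beside 46.8% of all genes. Of the 5, 1 was called, beside 0.358% of all genes, and 3 were lower without overlap, beside 3.40%. Dsp, a dentate gyrus marker, fell by 1.06 on the log2 scale (adjusted p = 0.0191 by edgeR), and Prox1, the granule cell factor, stood at -0.67 (adjusted p = 0.350 by edgeR). Fibcd1, a CA1 marker, was at -0.28 (adjusted p = 0.725 by edgeR), and Zbtb20 and Neurod6 were at -0.02 and 0.01. The part of field composition in the Atf6 difference was not tested.

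The genes whose levels most resembled those of Xbp1, Atf6 and Atf4 were found by Pearson's r of log2 CPM, centred within each experiment, over the 19 libraries and among 16282 genes of at least 1 CPM on average in each experiment. The libraries share their groups, so r here also carries the group differences. For Xbp1 they were P4ha1, a collagen prolyl hydroxylase subunit (r = 0.978), Manf (0.962) and Hspa5 (0.962). For Atf6 they were Sphkap (0.931), Dsp (0.903) and Iqgap2 (0.895), and for Atf4 Rit1 (0.895), Hspa4 (0.891) and Nfil3 (0.885). Among the 10 genes themselves Xbp1 varied with Ddit3 (r = 0.833) and Atf4 (0.796), and Atf4 with Ddit3 (0.703). Ern1 and Xbp1, enzyme and substrate, gave r = 0.025, and Atf6 and Xbp1 gave -0.259. The lowest of the 45 pairs, Mbtps2 with Eif2ak3 at -0.731, includes the library in which Mbtps2 was lowest and Eif2ak3 highest.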

How the data were processed

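RNA was measured in 19 libraries. The authors deposited whole-number counts per gene in 1 table of 51789 Ensembl identifiers; STAR, SAMtools 1.6, featureCounts 1.4.4 and mm10 are named in the submitters' processing notes. The annotation and strand setting are not given in the sources used here, so reads shared by overlapping genes (Mbtps2 and Yy2, Eif2ak3 and Gm43292, Ddit3 and Mars) cannot be assigned. GENCODE M21 (GRCm38) held 51596 of the identifiers.

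The experiments were fitted separately with edgeR 4.0.16 in R 4.3.3: TMM scaling, filterByExpr (passed by all 10 genes), robust quasi-likelihood fits, two-sided tests, Benjamini-Hochberg adjustment over all genes tested, calls under 0.05. SE is the log2 fold change over the square root of F. CPM were computed from the counts. The script was tested on simulated data. The members, the lists and the rule for named genes (those called and the 2 smallest p per list and comparison; the 3 most alike genes per arm) were chosen with earlier results of these data known. Other named genes, and leaving out choroid plexus rich libraries, were chosen after seeing values. Alternatives changed scaling, filter, tool (DESeq2 1.42.0, limma-voom 3.58.1), covariates and libraries. No 2 libraries of a group agreed within counting noise.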

Additional observations from a re-analysis of the deposited data

Results flagged for a closer look

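Mbtps2 in replicate 3 of the experiment 2 SOR group measured 18.3 CPM, while the other 3 libraries of that group lay between 26.5 and 27.6 CPM, a gap of 0.888 of the group's range. It was the 1 far value among 40 sets of gene and group checked, where chance gives about 1 in 20. The same library had the fewest counts, the fewest detected genes and the highest Eif2ak3 level of the experiment, 43.9 CPM.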

How the results depend on the processing

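The count of the 10 genes called after SOR fell from 1 to 0 in tTA+ mice alone and without the SOR replicates rich in choroid plexus markers (adjusted p of Xbp1 0.998 and 0.164 by edgeR), and ranged from 0 to 1 with single libraries left out. In the tTA comparison it rose from 0 to 1 with all 19 libraries in 1 fit. It was 0 for DN under every alternative run. Genes called after SOR, 20 in the main analysis, numbered 35 at an adjusted p under 0.1, 36 without a filter on low counts, 122 with DESeq2, 145 with all 19 libraries, 11 with tTA as a covariate, 0 in tTA+ mice alone, 1 without the libraries rich in choroid plexus markers, and 1 to 50 with single libraries left out; leaving out homecage replicate 1, 2 or 3 gave 1 each, SOR replicate 1 gave 2, homecage replicate 4 gave 7, SOR replicate 2 gave 13 and SOR replicate 3 gave 50. For tTA, 82 became 133, 265, 253 and 383 under the first 4 of these, 15 without the rich libraries, and 10 to 290 with single libraries left out (10 without SOR replicate 1, 290 without SOR replicate 3).

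The labels give no pairing by replicate number, and deviations did not correlate over 0.1 in every same-numbered pair. In experiment 1, 3 of 5 same-numbered pairs did (r from -0.052 to 0.375; other pairs -0.373 to 0.467). In experiment 2, 3 of 4 did and none was negative (0.070 to 0.532), while 8 of 12 other pairs were negative (-0.406 to 0.290), and 3 of the 8 libraries correlated best with their own number. A shared source in experiment 2 is therefore not settled. With the replicate number as a block, 9 genes were called after SOR and 2 for DN, and 1 and 0 of the 10.

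Some differences that were not called changed sign. For DN these were Mbtps1 with the block (-0.01); Ern1 (-0.00), Atf6 (-0.02), Mbtps1 (-0.00) and Atf4 (0.02) without the rich libraries; and, with single libraries left out, Atf6 (-0.03 to 0.04) and Mbtps1 (-0.01 to 0.03). After SOR they were Creb3l2 with the marker covariate (-0.00) and without the rich libraries (-0.05), Atf6 with tTA as a covariate (0.05) and in tTA+ mice (0.10), Mbtps1 in tTA+ mice (0.00), and, with single libraries left out, Atf6 (-0.10 to 0.05) and Creb3l2 (-0.02 to 0.16). For tTA they were Xbp1 (-0.01) and Atf4 (-0.02) under upper quartile scaling, Atf4 with at least 10 counts in every sample (-0.01) and with the marker covariate (-0.01), Eif2ak3 without the rich libraries (-0.02), and, with single libraries left out, Ern1 (-0.19 to 0.07), Xbp1 (-0.03 to 0.11), Eif2ak3 (-0.02 to 0.20), Atf4 (-0.05 to 0.18) and Ddit3 (-0.14 to 0.01). The cause was not tested.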
